A study of Mus musculus with 30 samples.

Results

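The 8 genes described here run from the sensing of DNA in the cytosol to the interferon made in response: Cgas, Tmem173 (the gene of STING, also called Sting1), Tbk1, Ikbke, Trex1, Enpp1, Slc19a1 and Ifnb1. They were chosen by name, as 8 of 49315 genes in the count files, and 6 of them were among the 21138 genes that reached the minimum of 10 reads summed across all libraries. The libraries come from 2 mouse tumor lines in culture, C2 (6694c2, a pancreatic ductal adenocarcinoma line, PDAC) and B16 (B16F10, a melanoma line). Each line received vehicle, IFNγ (100 ng/mL), IFNβ (1000 U/mL) or a STING agonist (225 μg/mL) for 24 h, with 3 libraries per group. The labels name C57BL/6 and no gene deletion or transgene for these cultures, and each line is a single established line, so a difference between C2 and B16 is one between these lines and not between tumor types. Neither the labels nor the methods used here say whether the 3 libraries of a group came from separate cultures, so p-values measure the spread between these libraries, which may be technical. The question was whether the interferons raised the weak STING transcript of C2, and how the rest of the pathway moved beside it.

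When double-stranded DNA reaches the cytosol, the enzyme cGAS binds it and makes the cyclic dinucleotide cGAMP. STING, a protein of the endoplasmic reticulum, binds cGAMP, moves to the Golgi and recruits the kinase TBK1, with its relative IKKε (gene Ikbke), which leads to phosphorylation of the transcription factor IRF3 and to transcription of Ifnb1. TREX1 degrades cytosolic DNA before it is sensed, ENPP1 hydrolyses cGAMP outside the cell and SLC19A1 is a carrier that can import cyclic dinucleotides. Interferon in turn acts through its receptors and transcription factors, IRF proteins among them, on many genes, some of them part of this pathway. Loss or low expression of STING or cGAS is known in many tumor lines.

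Library totals ranged from 15543131 to 32266795 reads on genes, and levels are given as CPM, read counts relative to library size, with sizes scaled by TMM to correct for composition. In sum, the lines carried their own markers. With vehicle, the 7 melanocyte markers summed to between 18356 and 18537 CPM in B16 and between 83.9 and 87.2 CPM in C2. The 7 epithelial markers, led by Krt8, summed to between 13.6 and 19.5 CPM in B16 and between 13853 and 14835 CPM in C2. Not all 7 were high in C2 with vehicle. Mean Cldn4 was 0.258 CPM in C2 and 0.174 CPM in B16, and mean Epcam was 3.52 and 0.188 CPM. Each line's libraries held traces of the other line's transcripts. Over 126 genes specific to B16, the median level in C2 libraries was 0.208% to 0.949% of that in B16, and over 203 genes specific to C2, the median in B16 libraries was 0.165% to 1.03%. The highest values in B16 were in the 3 libraries with STING agonist (0.826% to 1.03%, against 0.165% to 0.225% with vehicle). A gene counted as specific when it was high in one line and low in the other, both with vehicle. That choice can hold down the shares of vehicle libraries, and whether it also holds down those of treated ones was not tested. Genes of immune cells were present at a low level: with vehicle or IFNγ, the 11 immune cell markers, led by the B cell genes Ighm, Ms4a1 and Cd79a, summed to between 10.4 and 28.8 CPM in B16 and to between 13.6 and 25.97 CPM in C2, with the T cell gene Cd3e at 0 in all of these libraries. The 5 interferon targets used as a check of the treatments (Isg15, Oas1a, Irf1, Mx1 and Ifit1) all rose with each interferon in each line. In bulk RNA, fewer cells that express a gene and less RNA per cell cannot be told apart.

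Cgas and Tbk1 rose with both interferons in both lines. The bases in front of them are shown because transcription factors can bind in front of a gene. Whether any binds these stretches was not tested. Each stretch holds the 250 bases before the start site in RefSeq (GRCm38.p6), read 5′ to 3′ along the gene, and capitals mark GAAA on either strand, the core letters that IRF proteins contact. Cgas lies on the minus strand with chr9:78443238-78443487 in front of it, and Tbk1 on the minus strand with chr10:121586795-121587044 in front of it.
Cgas: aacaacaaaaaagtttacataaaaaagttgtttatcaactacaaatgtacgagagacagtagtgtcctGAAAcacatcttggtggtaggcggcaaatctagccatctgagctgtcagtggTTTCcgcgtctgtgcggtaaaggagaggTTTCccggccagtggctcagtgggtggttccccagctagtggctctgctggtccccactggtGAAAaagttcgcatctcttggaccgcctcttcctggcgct
Tbk1: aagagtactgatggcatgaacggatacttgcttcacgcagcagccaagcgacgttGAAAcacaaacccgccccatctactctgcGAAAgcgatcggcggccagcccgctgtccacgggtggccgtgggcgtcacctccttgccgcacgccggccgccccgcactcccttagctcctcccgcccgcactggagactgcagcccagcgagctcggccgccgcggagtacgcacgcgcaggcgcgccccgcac

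The stretch of Cgas held 4 matches to GAAA or its complement and that of Tbk1 held 2, and 86.4% of all 32851 stretches of this length held at least 1, with a median of 2. These letters were chosen after the longer ones had been searched. The longer search covered GAAANNGAA, the core of an interferon-stimulated response element, and TTCNNNGAA, the gamma-activated site, on both strands of windows of 300 bases that end 50 bases past the start. Neither occurred in any of the 9 windows that matched 7 of the 8 members by symbol, whereas 8.56% of all windows held the first and 8.3% the second. This says only that these letters are not in these windows. The selection of member windows left out chr18, where Tmem173 lies, so Tmem173 was not searched for these letters.

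With vehicle, Tmem173 and Enpp1 showed the largest differences between the lines among the 5 members called there. Of all genes, 28.7% were called higher in C2 and 29.3% lower in this comparison. Tmem173 (minus strand of chr18, 35733678 to 35740554 on GRCm38 as the files give it) encodes the adaptor that receives cGAMP. With vehicle it stood at 28.03, 29.2 and 29.2 CPM in B16 and at 1.40, 2.40 and 1.95 CPM in C2. The groups did not overlap, and the mean in C2 was 6.65% of that in B16. On the log2 scale C2 was lower by a difference of -3.90 (SE 0.13, edgeR quasi-likelihood adjusted p = 1.36e-26). Per length, Tmem173 was the highest of the 6 measurable members in B16, at 12.5 ± 0.300 RPKM (SD, n = 3), and the lowest in C2, at 0.833 ± 0.217 RPKM.

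IFNγ raised Tmem173 in both lines, and on the log2 scale by more in C2. In C2 the 3 libraries with IFNγ held 7.22, 6.93 and 6.67 CPM, all above the 3 with vehicle. The log2 fold change was 1.86 (95% interval 1.45 to 2.28, adjusted p = 1.22e-09 by edgeR), a 3.64-fold rise. In B16 the same treatment gave 53.1, 54.8 and 51.6 CPM, again with no overlap with vehicle, and a log2 fold change of 0.88 (0.73 to 1.03, adjusted p = 2.71e-25), or 1.84-fold. Tested in 1 fit over all 24 libraries, the IFNγ effect on Tmem173 was larger in C2 by 0.96 on the log2 scale (SE 0.19, adjusted p = 3.21e-04), where 9.47% of all genes tested were called for such a difference in either direction.

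The rise left C2 well under B16. Tmem173 in C2 with IFNγ reached a mean of 6.94 ± 0.279 CPM, which was 24.1% of the mean of untreated B16 and 13.1% of that of B16 with IFNγ. Against B16 with vehicle, C2 with IFNγ was lower by a difference of -2.06 (SE 0.10, adjusted p = 8.78e-21), and 59.0% of all genes were called in this comparison. Per length the level was 3.01 ± 0.121 RPKM, beside 2.96 ± 0.367 RPKM for Cgas in the same libraries. The share of B16 transcripts in the 3 C2 libraries with IFNγ, times the level of B16 with IFNγ, comes to between 0.164 and 0.504 CPM, below the level measured in each. The markers of immune cells, which express STING too, summed to between 19.5 and 25.97 CPM in C2 with vehicle and to between 13.6 and 21.5 CPM with IFNγ.

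With IFNβ the differences of Tmem173 from vehicle were smaller. The C2 libraries with IFNβ held 2.46, 3.08 and 2.65 CPM, all above those with vehicle, the nearest of which was at 2.40 CPM. The log2 fold change of 0.53 (0.09 to 0.98) was not called (adjusted p = 0.0935), and it was called only when vehicle replicate 2, the highest of that group, was left out (0.73, adjusted p = 0.0417, edgeR). The 3 B16 libraries with IFNβ held 34.6, 29.7 and 34.5 CPM, also all above vehicle. The log2 fold change there was 0.20 (0.05 to 0.35, adjusted p = 0.0457), a call that did not hold under DESeq2 (adjusted p = 0.0531), without a filter (0.0602) or with RLE scaling (adjusted p = 0.071), nor with all 24 libraries (0.128) or only the 6 compared (0.11) in the edgeR fit. Of 12 fits without 1 library, 10 lost it, with adjusted p up to 0.188, and it was kept only without B16 IFNγ replicate 2 or B16 IFNβ replicate 2. The IFNβ effect was not shown to differ between the lines for this gene (0.30, interval -0.11 to 0.71, adjusted p = 0.406), in a test that called 12.1% of all genes.

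Set directly against each other, the interferons differed in their effect on Tmem173 in both lines. IFNβ left it lower than IFNγ by a difference of -1.33 in C2 (adjusted p = 2.86e-07) and of -0.68 in B16 (adjusted p = 2.64e-16), both from edgeR. In this comparison 13.9% of all genes were called in C2 and 14.5% in B16. C2 with IFNβ stayed below B16 with vehicle by -3.41 on the log2 scale (adjusted p = 7.82e-27), at 9.47% of its mean, where 60.3% of all genes were called.

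No change of Tmem173 was called with the STING agonist. Tmem173 stood at 1.18, 1.37 and 1.90 CPM in C2, overlapping vehicle, with a log2 fold change of -0.36 (-0.84 to 0.12, adjusted p = 0.749). In B16 it stood at 29.7, 31.9 and 29.7 CPM, just above the 3 vehicle libraries, with a log2 fold change of 0.07 (-0.08 to 0.23, adjusted p = 0.784). In order of mean level the 8 groups ran from B16 with IFNγ over B16 with IFNβ, agonist and vehicle to C2 with IFNγ, IFNβ, vehicle and agonist. The ranges of B16 with IFNβ and with agonist overlapped, as did those of C2 with vehicle and with agonist.

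**Figure D1:**
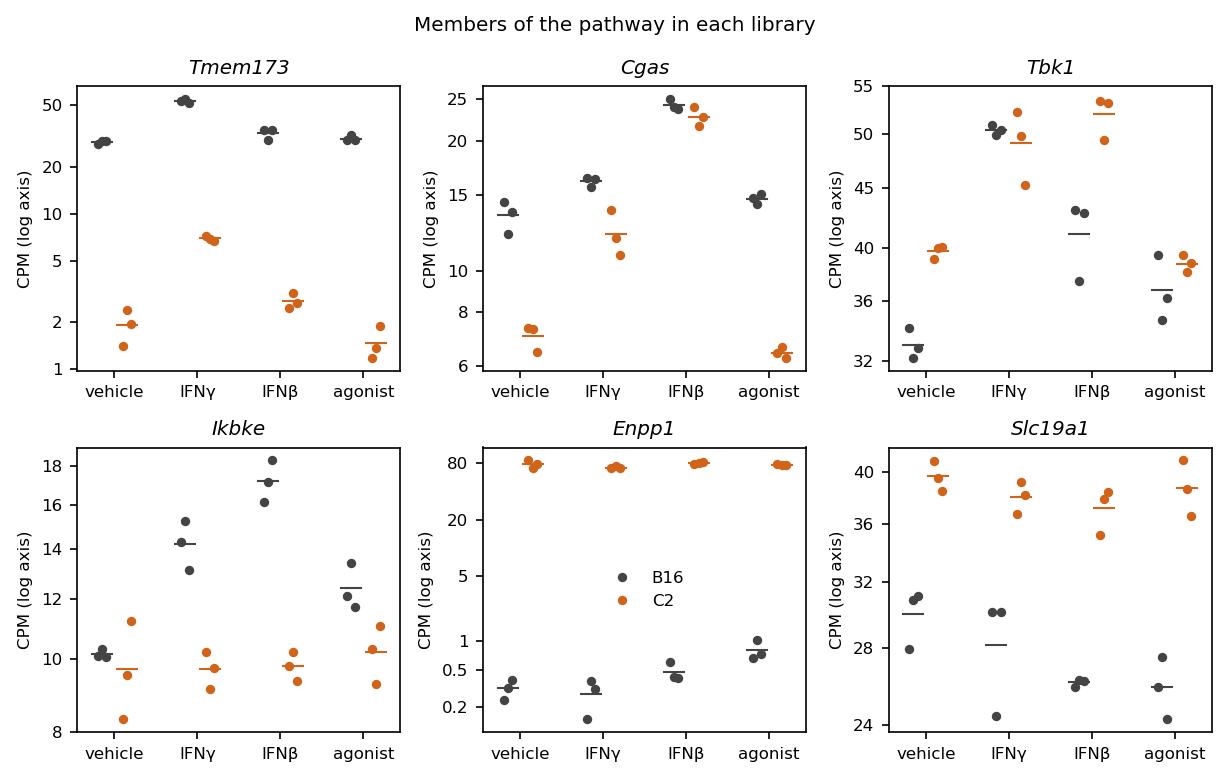
Level of the 6 measurable members in each library, in CPM on log axes, for B16 (dark) and C2 (orange) with vehicle, IFNγ, IFNβ or STING agonist; points are libraries and lines are means of 3. Tmem173 in C2 rises from between 1.40 and 2.40 CPM with vehicle to between 6.67 and 7.22 CPM with IFNγ and stays under every B16 library, and Enpp1 is high in C2 only.

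Cgas, the DNA sensor (minus strand of chr9, 78430526 to 78443237), changed more under IFNβ than under IFNγ in both lines. With vehicle it stood at 14.4, 12.2 and 13.7 CPM in B16 and at 7.35, 7.31 and 6.46 CPM in C2. C2 was lower with no overlap, by -0.93 on the log2 scale (SE 0.11, adjusted p = 5.42e-10). IFNβ brought C2 to 24.0, 21.7 and 22.7 CPM, a log2 fold change of 1.73 (1.5 to 1.96, adjusted p = 3.11e-16). It brought B16 to 25.1, 24.0 and 23.7 CPM, a log2 fold change of 0.86 (0.67 to 1.05, adjusted p = 4.99e-16). The ranges of the lines overlapped under IFNβ, and C2 then stood at 94.1% of the mean of B16.

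With IFNγ, Cgas rose to 13.8, 11.9 and 10.8 CPM in C2, a log2 fold change of 0.80 (0.55 to 1.04, adjusted p = 2.30e-06). In B16 it went to 16.5, 15.7 and 16.4 CPM, with no overlap with vehicle and a small log2 fold change of 0.27 (0.07 to 0.46, adjusted p = 0.0364). That call was lost without B16 vehicle replicate 2 (0.20, adjusted p = 0.232) or replicate 3 (0.28, adjusted p = 0.0649), and without B16 IFNγ replicate 1 (0.26, adjusted p = 0.0991) or replicate 3 (0.26, adjusted p = 0.0975). Both interferon effects on Cgas were larger in C2, by 0.84 for IFNβ (adjusted p = 2.19e-05) and by 0.51 for IFNγ (adjusted p = 0.0165). The second of these differences was not called without C2 vehicle replicate 3 (0.45, adjusted p = 0.0626) or C2 IFNγ replicate 1 (0.41, adjusted p = 0.0783). IFNβ exceeded IFNγ in both lines, by 0.93 in C2 (adjusted p = 2.78e-09) and by 0.60 in B16 (adjusted p = 2.35e-08).

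Treated C2 was also set against untreated B16. With IFNγ, Cgas in C2 differed from untreated B16 by -0.15 on the log2 scale (interval -0.35 to 0.05, adjusted p = 0.194), a difference that was called without C2 IFNγ replicate 1 (-0.25, adjusted p = 0.0448). With IFNβ it exceeded untreated B16 by 0.77 (adjusted p = 8.87e-10). Tmem173 was called lower in C2 in both of these comparisons.

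**Figure D2:**
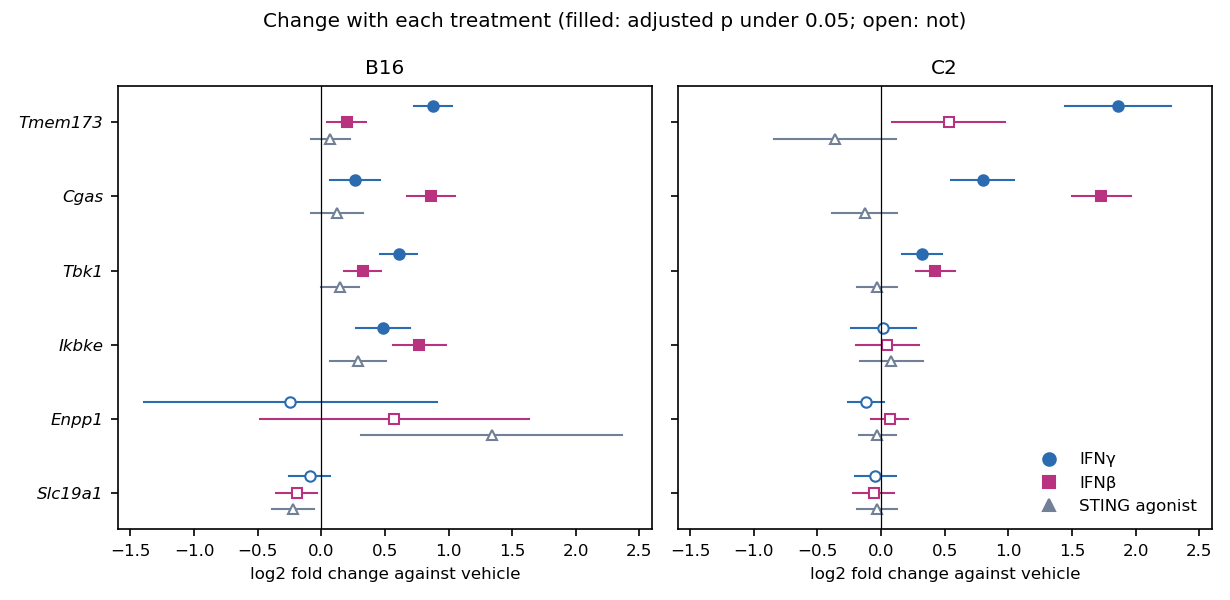
Log2 fold change against vehicle with its 95% interval for the 6 measurable members in B16 (left) and C2 (right); filled symbols passed an adjusted p of 0.05 and open ones did not. Tmem173 moves most with IFNγ and Cgas most with IFNβ in both lines, and no symbol for the STING agonist is filled.

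Tbk1, the kinase that phosphorylates IRF3 (minus strand of chr10, 121546455 to 121586794), was well expressed in both lines. With vehicle it stood at 34.1, 32.2 and 32.8 CPM in B16 and at 39.1, 40.0 and 40.0 CPM in C2, higher in C2 by 0.27 (SE 0.07, adjusted p = 1.64e-03) with no overlap. Per length these levels were 10.9 ± 0.326 RPKM in B16 and 13.1 ± 0.173 RPKM in C2, so Tbk1 led the 6 members in C2. IFNγ raised it to 50.9, 49.9 and 50.4 CPM in B16 (log2 fold change 0.61, adjusted p = 8.67e-14) and to 52.2, 49.9 and 45.2 CPM in C2 (0.32, adjusted p = 2.54e-03). IFNβ raised it to 43.1, 37.5 and 42.8 CPM in B16 (0.32, adjusted p = 1.65e-04) and to 53.4, 49.5 and 53.2 CPM in C2 (0.43, adjusted p = 3.31e-05). In none of these 4 settings did treated and vehicle libraries overlap.

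For Tbk1, the level in B16 was lower with IFNβ than with IFNγ (-0.28, adjusted p = 1.37e-03), whereas in C2 the direct comparison gave 0.11 (interval -0.04 to 0.26, adjusted p = 0.430). The IFNγ effect was smaller in C2 by -0.31 (adjusted p = 0.0438). This call stood close to the threshold and was lost with RLE scaling (-0.28, adjusted p = 0.0744), without a filter (-0.31, adjusted p = 0.090), and in 20 of the 24 fits that left out 1 library (adjusted p up to 0.188). It was kept only without C2 IFNγ replicate 1 or without 1 of the C2 libraries with IFNβ.

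Ikbke encodes IKKε, an inducible relative of TBK1 (minus strand of chr1, 131254343 to 131279606). With vehicle the lines overlapped, at 10.1, 10.3 and 10.1 CPM in B16 and 8.35, 9.54 and 11.2 CPM in C2 (difference -0.07, interval -0.29 to 0.16, adjusted p = 0.634). It rose in B16, to 14.3, 15.2 and 13.1 CPM with IFNγ (0.48, adjusted p = 1.12e-04) and to 16.1, 17.2 and 18.3 CPM with IFNβ (0.77, adjusted p = 5.80e-11). In C2 it stood at 10.2, 9.14 and 9.73 CPM with IFNγ (0.02, interval -0.24 to 0.27, adjusted p = 1.0) and at 9.79, 10.2 and 9.36 CPM with IFNβ (0.05, interval -0.20 to 0.30, adjusted p = 0.90), overlapping vehicle in both. The effect was smaller in C2 than in B16 by -0.75 for IFNβ (adjusted p = 4.72e-04) and by -0.48 for IFNγ (adjusted p = 0.0392). The first difference was called under every alternative run, and the second was lost with RLE scaling (adjusted p = 0.0557), without a filter (0.0704) and in 16 of 24 fits that left out 1 library (adjusted p up to 0.18). The fits that kept it were those without C2 vehicle replicate 1, C2 IFNγ replicate 1 or 1 of the C2 libraries with IFNβ or agonist. IFNβ exceeded IFNγ in B16 by 0.29 (adjusted p = 0.0386), which did not hold under DESeq2 (0.27, adjusted p = 0.0507), with RLE scaling (0.0536), without a filter (0.0543), with all 24 (0.0657) or only 6 libraries (0.0586), or without IFNγ replicate 1 (0.113), IFNγ replicate 3 (0.217), IFNβ replicate 2 (0.0987) or IFNβ replicate 3 (0.14).

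**Figure D3:**
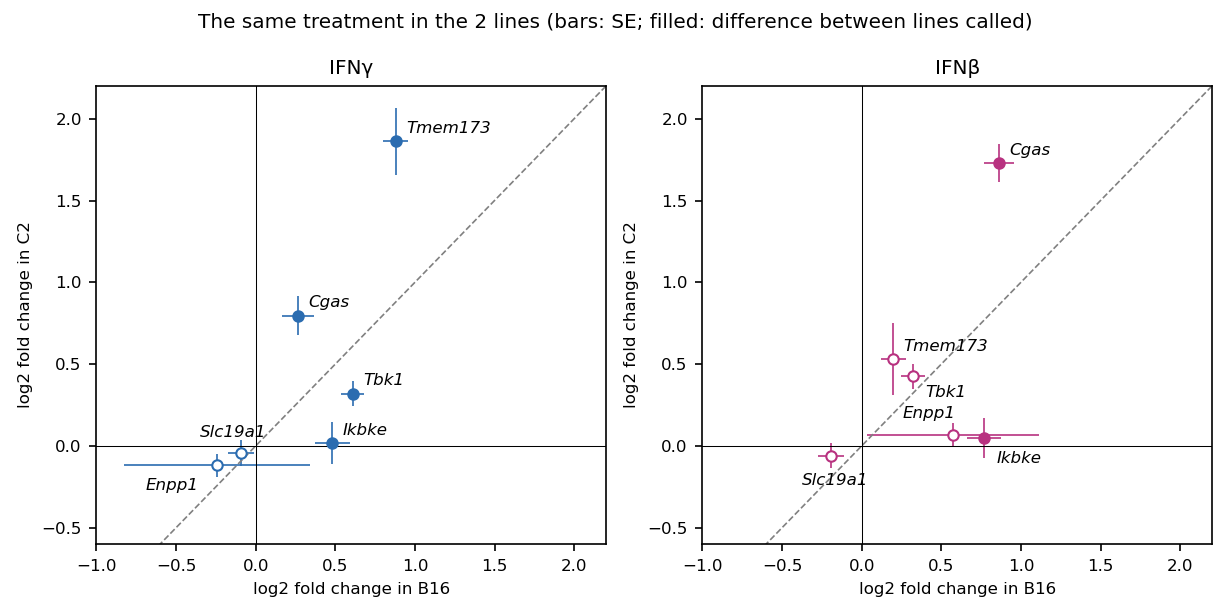
Log2 fold change in C2 (vertical axis) against that in B16 (horizontal axis) for IFNγ (left) and IFNβ (right), with SE bars; the dashed line marks equal change, and filled points are members whose change differed between the lines at an adjusted p under 0.05. Among filled points, Tmem173 and Cgas lie above the line and Tbk1 and Ikbke below it under IFNγ, and Cgas lies above and Ikbke below it under IFNβ.

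Enpp1, the hydrolase of extracellular cGAMP (minus strand of chr10, 24637914 to 24712159), was high in C2 and near 0 in B16. With vehicle it stood at 86.0, 72.3 and 79.3 CPM in C2 and at 0.239, 0.321 and 0.391 CPM in B16, where the group held 23 reads in all. The difference was 7.92 on the log2 scale (SE 0.14, adjusted p = 3.28e-36). Per length Enpp1 reached 7.72 ± 0.671 RPKM in C2, above Cgas at 1.71 ± 0.122 RPKM and Tmem173 at 0.833 ± 0.217 RPKM. The share of C2 transcripts in B16 vehicle libraries, times the level in C2, comes to between 0.131 and 0.178 CPM, and its part in that level and in the difference was not tested.

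Enpp1 was not called with any treatment within either line. In C2 it held between 70.6 and 74.4 CPM with IFNγ (-0.12, interval -0.26 to 0.03, adjusted p = 0.349), between 79.2 and 83.3 CPM with IFNβ (0.07, interval -0.08 to 0.21, adjusted p = 0.627) and between 76.1 and 79.1 CPM with agonist (-0.03, interval -0.17 to 0.11, adjusted p = 0.993). In B16 with agonist it stood at 0.657, 1.04 and 0.743 CPM, all above vehicle, with a log2 fold change of 1.34 (0.31 to 2.36, adjusted p = 0.174) that was called when all 24 libraries entered the fit (1.36, adjusted p = 0.00961). The agonist effect differed between the lines by -1.39 (adjusted p = 0.0112), lost without B16 vehicle replicate 1 (-1.23, adjusted p = 0.0661) or B16 STING agonist replicate 2 (-1.13, adjusted p = 0.166). Beside this stands the higher share of C2 transcripts in those 3 libraries, 0.826% to 1.03%, which times the level in C2 with agonist comes to 0.798, 0.640 and 0.644 CPM in replicates 1, 2 and 3. The measured level was below this value in replicate 1 and above it in the other 2. Its part in the result was not tested. In C2, IFNβ against IFNγ gave 0.19 (adjusted p = 0.0748), which was called without C2 vehicle replicate 1 (adjusted p = 0.0469).

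**Figure D4:**
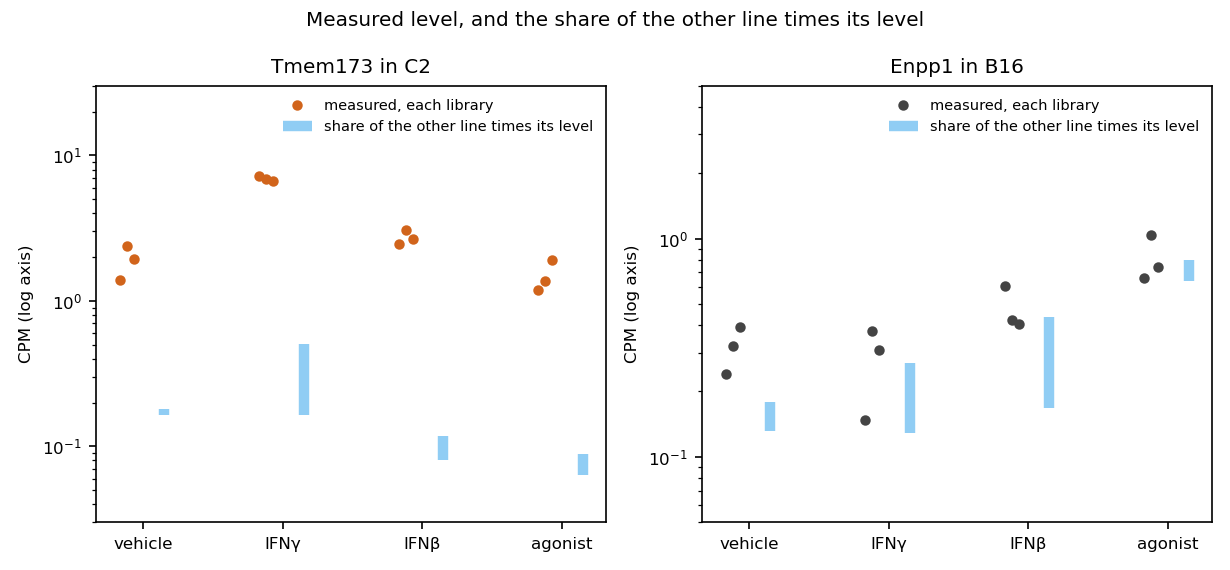
Left, Tmem173 in C2 libraries, and right, Enpp1 in B16 libraries, in CPM on log axes by treatment; points are libraries, and the bar gives the share of the other line's transcripts in those libraries (lowest to highest) times the other line's level with the same treatment. Tmem173 in C2 lies well above the bar in every group, and Enpp1 in B16 with STING agonist lies inside it in 2 libraries (0.657 and 0.743 CPM) and above it in 1 (1.04 CPM).

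Slc19a1, the folate carrier that can take up cyclic dinucleotides (plus strand of chr10, 77032241 to 77061002), was not called with any treatment. With vehicle it held 27.98, 30.9 and 31.1 CPM in B16 and 40.9, 39.6 and 38.5 CPM in C2, higher in C2 with no overlap (0.40, SE 0.08, adjusted p = 2.44e-05). Its 12 C2 libraries ranged from 35.2 to 41.0 CPM and its 12 B16 libraries from 24.2 to 31.1 CPM. The 6 treatment effects ran from -0.22 with agonist in B16 (adjusted p = 0.161) to -0.03 with agonist in C2 (adjusted p = 0.993). In B16 the libraries with IFNβ and those with agonist all lay below the ones with vehicle. The nearest to the threshold was IFNβ in B16 (-0.19, interval -0.35 to -0.03, adjusted p = 0.0755), which was called with RLE scaling (-0.21, adjusted p = 0.049) and without B16 vehicle replicate 1 (-0.24, adjusted p = 0.0437).

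Ifnb1 and Trex1 could not be measured. Ifnb1, the output of the pathway (minus strand of chr4, 88522025 to 88522774), had 2 reads in all 24 libraries, 1 in a B16 library with IFNγ and 1 in a C2 library with IFNγ, and 0 in the other 22. A count of 0 allows up to 3 reads, which is between 0.093 and 0.193 CPM depending on the depth of the library, counting error only. Ifnb1 was therefore not detectable at 24 h at this depth, also with the STING agonist, and no fold can be given. Of 20 further genes of type I, II and III interferons, 15 had no read in any library and only Ifnz passed the minimum of reads, with no treatment call. Trex1, the DNA exonuclease (minus strand of chr9, 109057933 to 109059734), had 0 reads in all 24 libraries. All 1147 of its exonic bases are also exonic bases of ENSMUSG00000105383 on the same strand, which had between 40 and 109 reads per library, so a count of 0 says nothing about the level of Trex1.

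Counted over the 6 measurable members, IFNγ raised 4 in B16 and 3 in C2 and IFNβ raised 4 in B16 and 2 in C2, and none fell. Of all genes tested, IFNγ raised 12% in B16 and 7.89% in C2 and lowered 10.8% and 5.66%, and IFNβ raised 12.7% in B16 and 10.4% in C2 and lowered 11.2% and 7.86%. With the STING agonist no member was called in either line, where 1.93% of all genes were called higher and 1.53% lower in B16 and 0.203% higher and 0.156% lower in C2. In B16 with agonist the 5 interferon targets rose, Ifit1 from 53.0 ± 3.83 to 240.2 ± 9.67 CPM and Isg15 from 48.9 ± 3.57 to 187.5 ± 7.52 CPM. In C2 only Ifit1 of the 5 rose, from 2.26 ± 0.229 to 3.46 ± 0.519 CPM (0.62, adjusted p = 0.0339, edgeR). The share of B16 transcripts in C2 was 0.208% to 0.293% with agonist and 0.573% to 0.625% with vehicle. Its part in the rise of Ifit1 was not tested. Between the lines with vehicle, 3 members were higher in C2 and 2 lower, against 28.7% of all genes higher and 29.3% lower. Differences between the lines in the agonist effect were called for 1 member and for 2.12% of all genes. The comparisons with a treatment share the vehicle libraries of their line.

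The genes around these members were read from lists of their regulators, which were chosen, as were the members, with earlier results of these data known. They hold 102 genes, of which 81 passed the minimum of reads. With IFNγ, 20 rose and 10 fell in B16 (24.7% and 12.3% of those tested) and 17 rose and 5 fell in C2 (21% and 6.17%), beside 12% higher and 10.8% lower of all genes in B16 and 7.89% and 5.66% in C2. With IFNβ, 19 rose and 14 fell in B16 (23.5% and 17.3% of those tested), and 18 rose and 5 fell in C2 (22.2% and 6.17%). Of all genes, IFNβ raised 12.7% and lowered 11.2% in B16, and raised 10.4% and lowered 7.86% in C2. The median log2 fold changes of the listed genes were between 0.03 and 0.08 in these 4 comparisons. They stood beside medians between 0.0 and 0.02 over all genes. With the agonist, 8 rose and 3 fell in B16 (9.88% and 3.7%), where 1.93% of all genes rose and 1.53% fell. In C2 with agonist, 1 rose (1.23%) and none fell, where 0.203% of all genes rose and 0.156% fell.

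Of 12 other sensors and cGAS cofactors, 5 rose and 2 fell with IFNγ in B16, where 12% of all genes rose and 10.8% fell, and 3 rose and 1 fell in C2, where 7.89% rose and 5.66% fell. Zbp1, a sensor of Z-form nucleic acid, went from 1.92 ± 0.725 to 386.0 ± 5.76 CPM in B16 and from 1.12 ± 0.603 to 108.0 ± 3.45 CPM in C2 with IFNγ, and to 184.2 ± 11.3 and 195.7 ± 18.5 CPM with IFNβ. Ifi204, a member of the AIM2-like receptors that has been linked to STING, rose from 2.89 to 106.8 CPM in B16 and from 11.3 to 62.5 CPM in C2 with IFNγ. Its relative Ifi203 rose as well, with log2 fold changes of 4.49 in B16 and 5.26 in C2. Xrcc5, a DNA end-binding protein, fell in C2 by 0.45 with IFNγ and by 0.42 with IFNβ on the log2 scale.

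Of 16 ubiquitin ligases and deubiquitinases that act on STING or cGAS, 6 rose and 2 fell with IFNγ in B16 and 7 rose and none fell in C2. Over all genes the shares were 12% up and 10.8% down in B16 and 7.89% up and 5.66% down in C2. Among the 16, Rnf26 and Usp49 share 56.6% and 51.2% of their exonic bases with other genes on the same strand. How such reads were counted is not given, so the levels of Rnf26 and Usp49 are uncertain. Usp18, which removes ISG15 and recruits USP20 to STING, stood at 50.5 ± 5.02 CPM in B16 and 1.63 ± 0.626 CPM in C2 with vehicle, at 216.0 ± 0.754 and 18.9 ± 2.50 CPM with IFNγ, and at 875.1 ± 26.2 and 504.0 ± 31.3 CPM with IFNβ. Trim56, a ligase linked to STING and cGAS activation, rose with IFNγ by 0.997 in B16 and 1.59 in C2 and with IFNβ by 0.57 and 1.64. Trim30a, a ligase that marks STING for degradation, rose with IFNβ to 240.8 CPM in B16 and 139.3 CPM in C2. With IFNγ it rose to 133.1 CPM in B16 and to 1.97 CPM in C2, where the share of B16 transcripts times the level in B16 comes to between 0.410 and 1.26 CPM. With the agonist, 4 of the 16 rose in B16, where 1.93% of all genes did, led by Usp18 (1.15) and Trim30a (0.76), and none was called in C2.

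Among 12 adaptors of the kinases and their outlets, 3 rose and 2 fell with IFNγ in B16 (12% and 10.8% of all genes) and 3 rose and none fell in C2 (7.89% and 5.66% of all genes). Irf3, the substrate of TBK1, stood at 30.1 ± 1.95 CPM in B16 and 21.8 ± 0.885 CPM in C2 with vehicle, lower in C2 by -0.46 (adjusted p = 4.20e-05). It fell slightly with IFNγ in B16 (-0.24, adjusted p = 0.0236) and was not called in C2 (0.03, adjusted p = 0.939). Irf7, the inducible relative of IRF3, was near 1 CPM in both lines with vehicle (0.916 ± 0.359 in B16 and 0.950 ± 0.449 in C2). In C2 it rose to 76.9 ± 4.83 CPM with IFNγ and to 961.7 ± 58.6 CPM with IFNβ, a log2 fold change of 10.01. With the agonist, Irf7 in C2 stood between 2.43 and 3.27 CPM, above all vehicle libraries (0.610 to 1.46 CPM). In B16 with agonist it stood between 0.299 and 1.82 CPM, overlapping vehicle. In B16 it reached 2.61 ± 0.289 CPM with IFNβ (1.49, adjusted p = 7.53e-06), while the share of C2 transcripts in those libraries times the level in C2 comes to between 1.99 and 5.18 CPM. The part of these shares in the levels of Trim30a in C2 and Irf7 in B16 was not tested. Azi2, an adaptor of TBK1, rose with IFNγ in B16 (0.80) and with IFNβ in both lines (0.75 in B16 and 0.55 in C2).

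**Figure D5:**
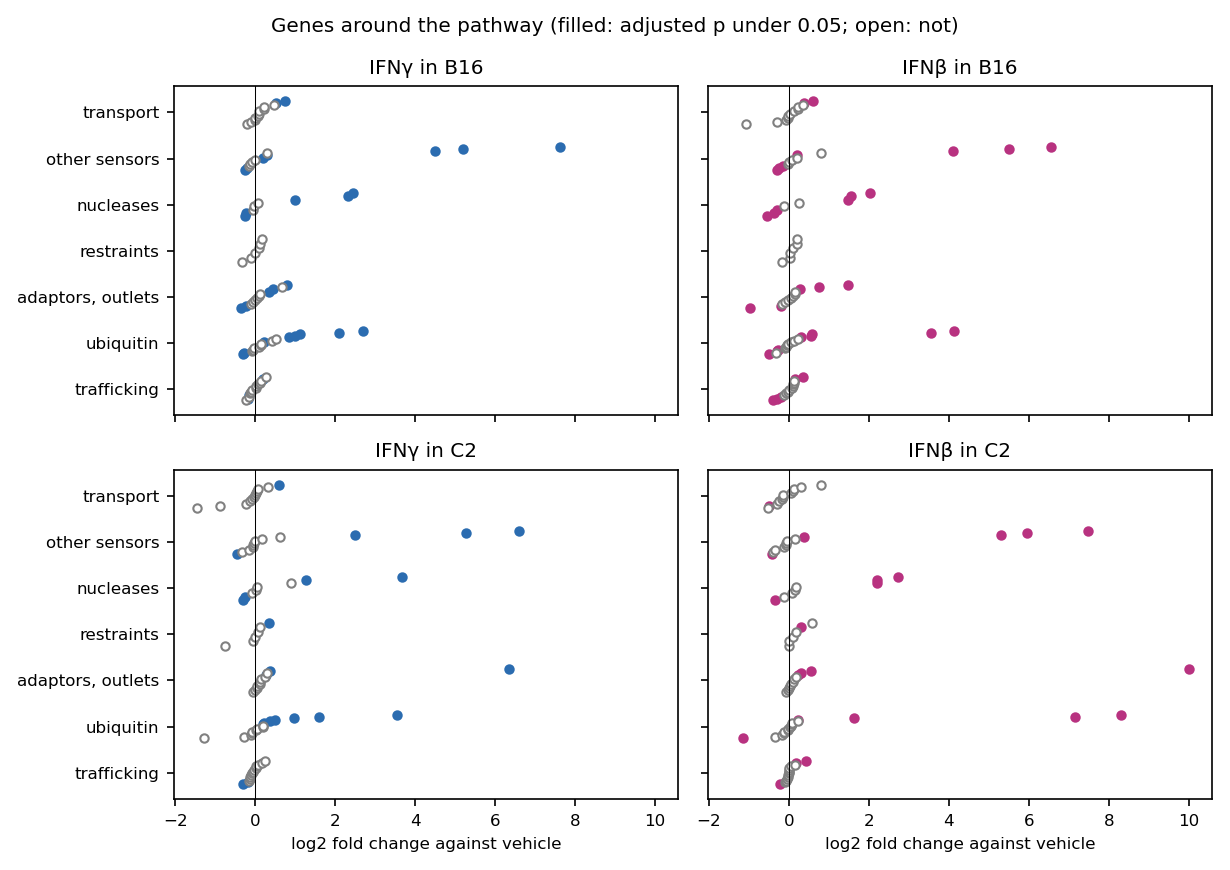
Log2 fold change against vehicle (horizontal axis) of single genes in 7 lists around the pathway (vertical axis, one band per list) for IFNγ and IFNβ in B16 (top) and C2 (bottom); filled points passed an adjusted p of 0.05. Most genes lie near 0, and the far points are Zbp1, Ifi203 and Ifi204 among the sensors, Usp18 and Trim30a among the ubiquitin enzymes, Samhd1 among the nucleases and, in C2, Irf7.

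Of 8 nucleases and other genes that act before cGAS, 3 rose and 2 fell with IFNγ in B16, and 2 rose and 2 fell in C2, with all-gene shares of 12% and 10.8% in B16 and of 7.89% and 5.66% in C2. Samhd1, a dNTPase that also limits the release of DNA from stalled forks, rose from 65.8 to 327.4 CPM in B16 and from 49.5 to 624.4 CPM in C2 with IFNγ, and to 193.1 and 320.0 CPM with IFNβ. Adar, an RNA editor, rose in the same 4 comparisons by 0.99 and 1.26 with IFNγ and by 1.48 and 2.2 with IFNβ (B16 first). Rnaseh2b, a subunit of the enzyme that removes ribonucleotides from DNA, fell in C2 by 0.26 with IFNγ and by 0.35 with IFNβ on the log2 scale. With vehicle, Banf1, which competes with cGAS for DNA, was at 416.6 CPM in C2 and 143.1 CPM in B16 (1.54, adjusted p = 3.35e-23).

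Of 14 trafficking genes tested, 1 rose and 2 fell with IFNγ in B16 (12% and 10.8% of all genes) and none rose and 2 fell in C2 (7.89% and 5.66% of all genes), among them Sar1a (0.19) in B16 and Syk (-0.31) in C2. With vehicle, 7 of the 14 were higher in C2 and 5 lower, where 28.7% of all genes were higher and 29.3% lower. Zdhhc15, one of the enzymes that palmitoylate STING, was at 32.6 CPM in B16 and 2.11 CPM in C2 (-3.94, adjusted p = 5.13e-27). Of 6 restraints on STING signalling, none was called with either interferon in B16. In C2, Ptpn1 rose with IFNγ (0.35) and Ppp6c with IFNβ (0.31). Over all genes, IFNγ raised 12% and lowered 10.8% in B16, and raised 7.89% and lowered 5.66% in C2. IFNβ raised 12.7% and lowered 11.2% of all genes in B16, and raised 10.4% and lowered 7.86% in C2. Nlrc3, which binds STING and TBK1, was lower in C2 with vehicle by -3.48 (adjusted p = 1.56e-09).

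Of 12 tested transporters and hydrolases of cyclic dinucleotides, 2 rose with IFNγ in B16 (Slc46a3 by 0.75 and Smpdl3b by 0.51) and 1 in C2 (Smpdl3b by 0.59), where 12% and 7.89% of all genes rose. The lines differed with vehicle in 11 of the 12 (6 higher and 5 lower in C2), in a comparison that called 28.7% of all genes higher and 29.3% lower. Lrrc8a, among the 12, shares 66.2% of its exonic bases with other genes on the same strand, so its level is uncertain. P2rx7, an ATP-gated channel through which cGAMP can pass, was at 25.8 CPM in B16 and 0.196 CPM in C2 (-7.01, adjusted p = 3.09e-26), and Smpdl3a, a cGAMP hydrolase, at 59.8 and 1.08 CPM (-5.80, adjusted p = 8.96e-31). The share of B16 transcripts in the C2 vehicle libraries times the level in B16 comes to between 0.148 and 0.161 CPM for P2rx7 and between 0.342 and 0.374 CPM for Smpdl3a, and its part in these differences was not tested. Lrrc8e and Lrrc8c, subunits of the volume-regulated anion channel, were higher in C2, Lrrc8c at 67.9 ± 6.61 against 16.7 ± 1.07 CPM in B16 (2.02, adjusted p = 1.62e-23) and Lrrc8e by 5.25. Enpp3, a relative of Enpp1 that also cleaves cGAMP, was low in both, at 1.15 ± 0.247 CPM in B16 and 0.332 ± 0.0462 CPM in C2 (-1.77, adjusted p = 7.83e-04). Slc46a2 had no read in any library.

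The genes nearest in pattern were found by distance over the 6 log2 fold changes against vehicle, among genes with a mean of at least 1 CPM. Nearest to Tmem173 were Zfp287 (distance 0.392), Pltp (0.453), Ggct (0.495), Pde1b (0.53) and Arntl2 (0.544), with log2 fold changes under IFNγ in C2 between 1.62 and 2.19. Nearest to Cgas were N4bp1 (0.406), Cmtr1 (0.412), Rbms2 (0.597), Cox18 (0.598) and Sesn2 (0.629). Nearest to Tbk1 were Efcab14 (0.178), Zfp513 (0.189), Sfi1 (0.209), Dnajc1 (0.215) and P4ha1 (0.216). No list of neighbours contained another member.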

How the data were processed

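Bulk RNA sequencing of 24 libraries (2 lines, 4 treatments, 3 libraries each) was analysed, and the single-cell samples were not analysed here. The submitters' processing notes name cutadapt 1.14, STAR 2.7.9a and mm10, the methods name Rsubread for counting, and the authors deposited raw counts. The annotation release, strand setting and treatment of shared reads are not given in the sources used here. This bears on Trex1 and on other genes with shared exonic bases. Coordinates are those of the count files, of which 91.4% are the same in GENCODE M21 (GRCm38).

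Genes that reached 10 reads summed across all libraries were TMM-normalized and tested with edgeR 4.0.16 (R 4.3.3) by the quasi-likelihood test, with Benjamini-Hochberg adjustment over all genes tested and a threshold of 0.05. Comparisons within a line used its 12 libraries, those between lines all 24. The SE is the absolute log2 fold change divided by the square root of F. RPKM used the length in the files. All replicate pairs differed beyond counting noise (chi-square per gene 2.99 to 20.4). The members, lists and tests were chosen with earlier results of these data known. Named are all members, up to 4 called genes per list and comparison, Irf3, Irf7, Usp18, Zbp1, Slc46a2, Lrrc8c, Enpp3 and the 5 nearest genes for Tmem173, Cgas and Tbk1; Ifit1 and Isg15 come from the 5 targets that check the treatments (1 further target is not reported here). Alternatives were DESeq2 1.42.0, RLE scaling, filterByExpr, no low-count filter, the replicate number as a block, other sets of libraries in the fit, and leaving out single libraries.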

Additional observations from a re-analysis of the deposited data

Results flagged for a closer look

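For 7 combinations of member and treatment, the effect differed between the lines by a test of the difference itself (edgeR over 24 libraries, adjusted p under 0.05, C2 minus B16 on the log2 scale). For IFNγ these were Tmem173 (0.96), Cgas (0.51), Tbk1 (-0.31) and Ikbke (-0.48), where 9.47% of all genes were called. The calls for Tbk1 and Ikbke were lost with RLE scaling, without a filter, and in 20 and 16 of 24 fits without 1 library. The call for Cgas with IFNγ was lost in 2 of 24 such fits. For IFNβ they were Cgas (0.84) and Ikbke (-0.75), where 12.1% of all genes were called. For the STING agonist, where 2.12% of all genes were called, it was Enpp1 (-1.39), lost in 2 of 24 such fits. The value for Enpp1 rests on B16 levels of 0.657 to 1.04 CPM in the 3 B16 libraries with the highest share of C2 transcripts. The part of that share in the result was not tested. With vehicle, C2 differed from B16 by -3.90 for Tmem173, by -0.93 for Cgas and by -0.07 for Ikbke (adjusted p = 0.634).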

How the results depend on the processing

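The 84 member values (6 members, 14 comparisons) were recomputed under the alternatives, which gave 1956 values: 1864 kept the direction and the side of the threshold, 72 lost a call, 6 gained one and 14 changed sign. Calls were lost for 7 of the 84 and gained for 5, named beside their results. The members called for a difference in the IFNγ effect went from 4 to 2 with RLE scaling and to 2 without a filter, and ranged from 1 (without C2 vehicle replicate 3) to 4 over fits without 1 library. For the agonist effect they ranged from 0 to 1. With agonist in B16 the count went from 0 to 1 with all 24 libraries. Without 1 library, Tmem173 in C2 ranged from 1.68 to 2.07 with IFNγ and from 0.35 to 0.73 with IFNβ. Signs changed only without 1 library and only for uncalled values: with IFNγ in B16, Enpp1 (-0.519 to 0.0938) and Slc19a1 (-0.141 to 0.00084); Ikbke in C2 with IFNγ (-0.0792 to 0.134), IFNβ (-0.0495 to 0.161) and agonist (-0.0181 to 0.197); with agonist in C2, Enpp1 (-0.0846 to 0.0350) and Slc19a1 (-0.0707 to 0.00676); for IFNβ against IFNγ in C2, Ikbke (-0.0235 to 0.0628) and Slc19a1 (-0.0436 to 0.0249); Ikbke between the lines (-0.182 to 0.0293); and for the difference in the IFNγ effect, Enpp1 (-0.170 to 0.458) and Slc19a1 (-0.00944 to 0.130). The causes were not tested.

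Over all genes, calls with agonist in C2 (76) became 44 with filterByExpr, 159 without a filter and 132 with only the 6 libraries compared. With agonist in B16 (408 higher and 324 lower) they became 354 and 105 with all 24 libraries and 643 and 628 with only 6. For the difference in the agonist effect (449) they became 743 under DESeq2. Deviations of same-numbered libraries had a median correlation of 0.00238 in B16 (range -0.122 to 0.131) and -0.00942 in C2 (-0.187 to 0.172). This gave no sign that the numbers pair the libraries, but a weak pairing would not be seen this way. With a replicate block, 4, 4 and 0 members were called in B16 with IFNγ, IFNβ and agonist and 3, 2 and 0 in C2, and all-gene calls with agonist in C2 were 126.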
